A study of Homo sapiens with 15 samples.

Results

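The genes described here are 10 members of the NF-kB system, taken by name from the deposited tables: the 5 subunit genes NFKB1, NFKB2, REL, RELA and RELB, and 5 genes that NF-kB is known to induce or that regulate it, NFKBIA, TNFAIP3, BIRC2, BIRC3 and ICAM1. They are 10 of the 60721 gene identifiers in the tables. Each of the 10 passed the filter on low counts, which left 17457 genes for testing. Poly(A) RNA was sequenced from MCF-10A, a non-tumorigenic human mammary epithelial line that the labels call MCF10. There are 15 libraries, 3 biological replicates of each of 5 genotypes. These are unmodified parental cells, cells with an empty vector, and 3 lines mutant for NF1, made with guide RNA 1 (NF1-g1), with guide RNA 2 (NF1-g2) or with both guides (NF1-g1/g2, here the double-guide line). NF1 encodes neurofibromin, which turns RAS off.

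Every genotype, the controls included, grew in the same medium without treatment, phenol red-free DMEM/F12 that held 10% horse serum, EGF at 20 ng/mL, hydrocortisone at 0.5 ug/mL, cholera toxin at 100 ng/mL and insulin at 10 ug/mL. Hydrocortisone is a glucocorticoid, and glucocorticoids are known to restrain NF-kB target genes. No cytokine was added, so the values are levels in cells growing in this medium, with its serum and EGF, and not after an added cytokine. Whether an edited line is a clone or a pool, and whether replicates are separate cultures, is not given in the sources used here, so p-values measure the spread between these libraries.

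NF-kB is a family of transcription factors that work as pairs of subunits. In resting cells, inhibitor proteins of the IkB family hold the pairs in the cytoplasm. Signals from cytokine receptors lead a kinase complex to mark the inhibitor for destruction, and the freed pairs enter the nucleus, while a slower branch makes the p52 subunit from the NFKB2 product and uses RELB. NF-kB switches on genes of its own subunits and of its inhibitors, so that transcripts such as NFKBIA, TNFAIP3, NFKB2, RELB and BIRC3 serve as a readout of its recent activity, although RNA levels do not measure the factor's location or its binding.

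An NF-kB type sequence lies close to a RefSeq start site (GRCh38.p14) in 7 of the 10 genes. Windows from 250 bases before to 50 bases after each start were present for 9 members and searched on both strands for the NF-kB consensus, a motif of 10 letters, and for GGAAATTCC, which can lie within it. The consensus was found for 6 of the 9, GGAAATTCC for 4, and either for 7. Among all 27305 genes with such windows, 13.3% held the consensus, 0.56% held GGAAATTCC and 13.5% held either. RELB had no window. The stretches below, 1 for each of the 7 genes, are shown because these are the members whose levels are compared below. They read 5′ to 3′ on the strand of the gene, with the matching letters in capitals.
NFKB1, chr4:102501300-102501329, + strand: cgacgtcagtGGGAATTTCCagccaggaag
NFKB2, chr10:102394461-102394490, + strand: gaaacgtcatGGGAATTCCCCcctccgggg
REL, chr2:60881517-60881546, + strand: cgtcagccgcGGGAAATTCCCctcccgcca
NFKBIA, chr14:35404811-35404840, - strand: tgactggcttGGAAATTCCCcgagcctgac
TNFAIP3, chr6:137867188-137867217, + strand: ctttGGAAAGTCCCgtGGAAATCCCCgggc
BIRC3, chr11:102317275-102317304, + strand: tttgggtcatGGAAATCCCCgagtgggttt
ICAM1, chr19:10270923-10270952, + strand: tgctttagcttGGAAATTCCggagctgaag
The match begins 49 bases before the RefSeq start for NFKB1, 107 for NFKB2, 47 for REL, 81 for NFKBIA, 67 for TNFAIP3, 199 for BIRC3 and 186 for ICAM1. In GENCODE release 29, whose starts differ from those of RefSeq, the stretches of NFKBIA and BIRC3 lie upstream of the gene. The others overlap an exon, that of NFKB1 by its last base only, so that the NFKB1 match lies upstream of the gene. Such a match is a description of letters and shows neither binding nor a cause.

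The library totals ran from 46129559 to 78976917 counts, so that 3 counts corresponded to 0.038 to 0.065 CPM, the count relative to the library total. The targeted gene, NF1, went with the labels: it was at 115 to 159 CPM in the 6 control libraries, 43.6 to 51.3 CPM with guide 1, 27.0 to 31.4 CPM with guide 2 and 26.0 to 29.4 CPM with both guides. Markers of basal mammary epithelium, 7 of 7 detected, summed to 2506 to 7059 CPM in parental cells, 6315 to 11433 CPM with the empty vector, 1953 to 2563 CPM with guide 1, 2072 to 12087 CPM with guide 2 and 3959 to 4522 CPM with both guides. General epithelial markers, 4 of 4 detected, summed to between 255 and 486 CPM in every library. Luminal markers, 3 of 4 detected, summed to 20.2 to 37.6 CPM, with GATA3 at 15.4 to 35.3 CPM, FOXA1 at 1.7 to 7.82 CPM, ESR1 under 1 CPM and PGR at no more than 1 count. Of the leukocyte markers, CD14 was at 3.24 to 6.95 CPM, PTPRC and LYZ had at most 3 counts in a library and CD3E had none. Mesenchymal markers, 6 of 6 detected, summed to 3745 to 15634 CPM with guide 2, 14884 to 20680 CPM with guide 1 and 8337 to 15159 CPM elsewhere. Fibroblast markers, 6 of 6 detected and mostly DCN, summed to 437 to 1105 CPM with guide 1 and 62.3 to 407 CPM elsewhere, and endothelial markers, 3 of 4 detected, to at most 12.7 CPM. Libraries of the same genotype differed in epithelial genes in the guide 2 and parental groups. In guide 2 replicate 2 the basal epithelial factor TP63 was at 75.8 CPM, beside 0.0542 and 0.0723 CPM in the other guide 2 libraries, and CDH1, which encodes E-cadherin, was at 91.4 CPM beside 0.0361 and 0.0434 CPM. The NF1 level of that library, 31.4 CPM, matched its label. Parental replicate 2 had 0.815 CPM of TP63 against 37.4 and 19.9 CPM in parental replicates 1 and 3, and 1.79 CPM of CDH1 against 42.9 and 37.8 CPM. With the empty vector TP63 was at 41.4 to 68 CPM and CDH1 at 44.1 to 127 CPM. With guide 1 they were at 0.142 to 0.203 and 0.0191 to 0.158 CPM, and with both guides at 7.83 to 11 and 14.8 to 23.4 CPM. Guide 1 against the empty vector thus also compares libraries that differ throughout in these epithelial genes. Results for the 10 genes are given with all 15 libraries and, where a call against a control genotype changed, without guide 2 replicate 2. No member passed against parental cells with or without parental replicate 2 in the fit.

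Compared per kilobase of exon, the inhibitor NFKBIA and the ubiquitin ligase BIRC2 had the highest levels among the 10 genes and REL the lowest. Averaged over the 15 libraries, NFKBIA was at 28.9 CPM per kilobase, BIRC2 at 21.0, NFKB1 at 13.1, RELA at 12.3, BIRC3 at 11.1, NFKB2 at 7.19, ICAM1 at 3.78, TNFAIP3 at 3.56, RELB at 3.21 and REL at 0.669. The 10 genes differed in how much they varied. The highest library had 1.26 times the CPM of the lowest for RELA, 1.49 times for BIRC2, 1.62 times for NFKBIA and 1.81 times for NFKB1. That ratio was 2.40 for NFKB2, 2.57 for REL, 3.39 for RELB, 3.64 for BIRC3, 6.06 for TNFAIP3 and 7.26 for ICAM1. The abundant RELA, which encodes the p65 subunit, was thus the steadiest of the set, and the adhesion gene ICAM1 the most variable.

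**Figure D1:**
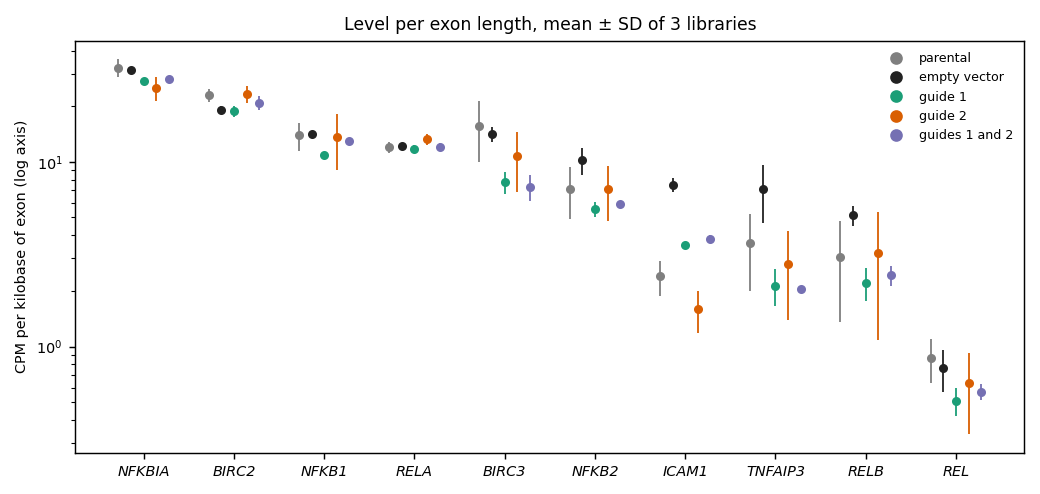
Level of each member in CPM per kilobase of exon (log axis), by genotype, as the mean with SD of 3 libraries. Genes are ordered by their mean over genotypes, from NFKBIA, the highest, to REL, the lowest, and the spread is widest for the parental and guide 2 groups.

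Among the subunit genes, NFKB2 and RELB, which belong to the slower branch, were highest with the empty vector, whereas RELA was much the same in every library. RELA (ENSG00000173039, chromosome 11, 65653596 to 65663094, GRCh38) had 70.9, 62.9 and 63.0 CPM in parental cells and 65.1, 67.2 and 67.7 CPM with the empty vector. Its levels were 63.0, 67.6 and 61.4 CPM with guide 1, 74.2, 77.2 and 67.3 CPM with guide 2, and 67.6, 62.6 and 68.8 CPM with both guides. The groups overlapped except that guide 2 replicates 1 and 2 lay above every other library. Against the empty vector the log2 fold change was -0.07 (SE 0.076) for guide 1, 0.12 (SE 0.076) for guide 2 and -0.03 (SE 0.0761) for both guides, none of which passed the test in edgeR (adjusted p 0.649, 0.445 and 0.934).

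NFKB2 (ENSG00000077150, chromosome 10, 102394110 to 102402529) encodes the p100 precursor of p52. It was measured at 42.6, 22.7 and 30.7 CPM in parental cells, at 43.3, 39.6 and 54.3 CPM with the empty vector and at 27.6, 23.8 and 23.3 CPM with guide 1. The guide 2 libraries had 26.3, 44.4 and 25.7 CPM, and those with both guides 27.0, 26.2 and 26.1 CPM. All guide 1 and double-guide libraries lay below all empty vector libraries, while guide 2 replicate 2 reached the empty vector range. With guide 1 NFKB2 fell (log2 fold change -0.89 with an SE of 0.233, edgeR adjusted p 0.0431). The call was lost when the replicate numbers, which the labels do not describe as a pairing, were kept as a block over all libraries (log2 fold change -0.90, adjusted p 0.0824). It was also lost when parental replicate 3 or any empty vector, guide 1 or double-guide library was left out. The adjusted p over the 15 such fits ran from 0.00383 to 0.186. For both guides the log2 fold change was -0.81 (SE 0.233, adjusted p 0.119) and for guide 2 it was -0.53 (SE 0.232, adjusted p 0.238). Both passed without guide 2 replicate 2, at -0.83 (adjusted p 0.0176) and -0.85 (adjusted p 0.0146).

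RELB (ENSG00000104856, chromosome 19, 45001430 to 45038198), the partner of p52, had the pattern of NFKB2 with a wider spread. Its levels were 15.2, 5.42 and 7.27 CPM in parental cells, 14.4, 14.6 and 17.7 CPM with the empty vector, 7.83, 7.17 and 5.22 CPM with guide 1, 5.82, 17.2 and 6.24 CPM with guide 2, and 6.79, 6.93 and 8.42 CPM with both guides. The libraries thus fell into levels of 14.4 CPM and above (the empty vector, parental replicate 1 and guide 2 replicate 2) and of 8.42 CPM and below (the other 10). Its log2 difference from the empty vector was -1.22 with guide 1 (SE 0.416), -0.69 with guide 2 (SE 0.412) and -1.10 with both guides (SE 0.416). None of these passed in edgeR with all libraries (adjusted p 0.107, 0.398 and 0.241). Without guide 2 replicate 2, all 3 did, at -1.23 (adjusted p 0.0105), -1.40 (adjusted p 0.0145) and -1.11 (adjusted p 0.0387).

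NFKB1 (ENSG00000109320, chromosome 4, 102501329 to 102617302), which encodes the p105 precursor of p50, varied less. It had 105, 76.9 and 80.4 CPM in parental cells, 85.8, 87.8 and 91.4 CPM with the empty vector, 66.1, 67.3 and 71.6 CPM with guide 1, 65.1, 118 and 71.9 CPM with guide 2, and 81.4, 79.0 and 81.9 CPM with both guides. Guide 1 and double-guide libraries lay below the empty vector without overlap, but the log2 differences of -0.38 (SE 0.175, adjusted p 0.229) and -0.15 (SE 0.175, adjusted p 0.796) did not pass in edgeR. REL (ENSG00000162924, chromosome 2, 60881521 to 60931610), a subunit best known from lymphocytes, had 14.7, 8.59 and 11.1 CPM in parental cells and 8.37, 8.79 and 13.1 CPM with the empty vector. It had 6.22, 5.90 and 8.04 CPM with guide 1, 5.71, 12.8 and 6.46 CPM with guide 2, and 8.24, 7.56 and 6.72 CPM with both guides. The REL differences against the empty vector, -0.60, -0.30 and -0.45 on the log2 scale for guide 1, guide 2 and both guides, did not pass (adjusted p 0.261, 0.641 and 0.56). With guide 2 replicate 2 left out, NFKB1 was lower with guide 1 (log2 fold change -0.39, adjusted p 0.012) and guide 2 (-0.40, adjusted p 0.0256), and REL with guide 2 (-0.76, adjusted p 0.0475).

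**Figure D2:**
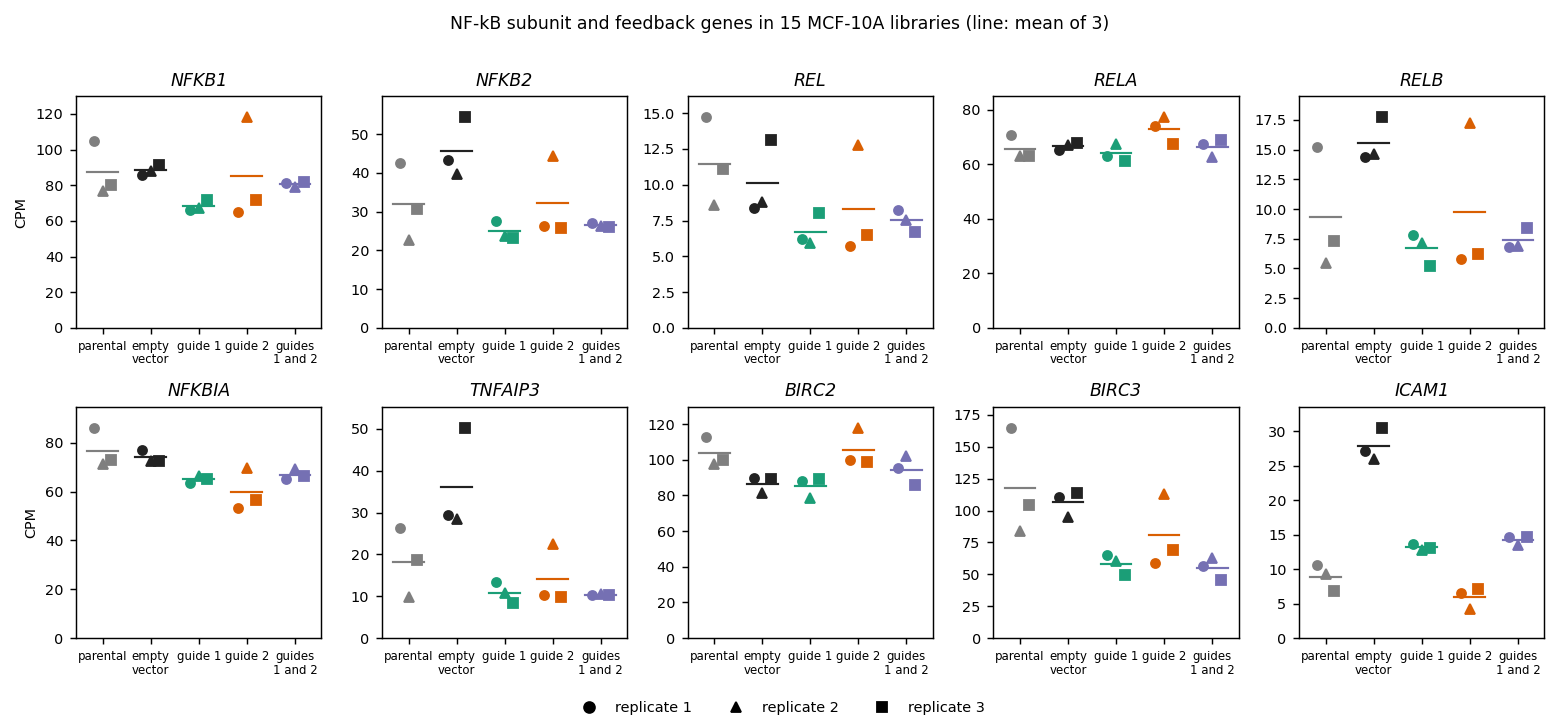
Level of the 10 members in CPM (vertical axis, from 0) in each of the 15 libraries by genotype. Point shapes give the replicate number and lines the mean of 3. Guide 2 replicate 2 (triangle) is the highest guide 2 library for 9 genes and the lowest for ICAM1, at 4.20 CPM, while the empty vector libraries are the highest 3 for ICAM1, at 25.9 to 30.5 CPM.

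Of the inhibitors, TNFAIP3 was lower in the edited lines than with the empty vector, by a larger factor than any subunit gene. Against parental cells this ranking did not hold. With guide 2 the log2 fold change there was -0.35 for TNFAIP3 and -0.45 for REL, neither of which passed. NFKBIA was lower than in the controls by a small margin that did not pass with all libraries. TNFAIP3 (ENSG00000118503, chromosome 6, 137867188 to 137883312) encodes A20, an enzyme that edits ubiquitin chains and ends NF-kB signalling. Its levels were 26.3, 9.93 and 18.7 CPM in parental cells and 29.4, 28.5 and 50.3 CPM with the empty vector. They were 13.3, 10.8 and 8.31 CPM with guide 1, 10.3, 22.4 and 9.94 CPM with guide 2, and 10.2, 10.6 and 10.4 CPM with both guides. No library of another genotype reached the empty vector range, and the parental libraries spread from the edited level almost up to it. TNFAIP3 fell with guide 1 to 0.296 of the empty vector level (log2 fold change -1.76, SE 0.381, edgeR adjusted p 0.02) and with both guides to 0.283 (log2 fold change -1.82, SE 0.382, adjusted p 0.0442). With guide 2 the log2 fold change of -1.37 (SE 0.377, adjusted p 0.0633) did not pass. It passed without guide 2 replicate 2 (-1.87, SE 0.353, adjusted p 0.00396). The guide 1 call was lost without empty vector replicate 3, the highest library, or without any guide 1 library (adjusted p 0.00158 to 0.0991 over all 15 fits). The double-guide call was lost without parental replicate 3, guide 1 replicate 1 or 2, or any empty vector or double-guide library (0.00491 to 0.197).

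NFKBIA (ENSG00000100906, chromosome 14, 35401511 to 35404749) encodes IkB-alpha, the inhibitor that NF-kB renews within its fastest feedback loop. It had 86.2, 71.2 and 72.9 CPM in parental cells, 77.1, 72.7 and 72.7 CPM with the empty vector, 63.7, 66.5 and 65.2 CPM with guide 1, 53.2, 69.8 and 56.4 CPM with guide 2, and 65.1, 69.2 and 66.3 CPM with both guides. Every edited library, 69.8 CPM at most, was below every control library, 71.2 CPM at least. NFKBIA was the only member of the 10 with that separation, which 0.183% of all tested genes had in this direction. The mean of the edited genotypes against that of the controls nevertheless did not pass in edgeR (log2 fold change -0.24, SE 0.0613, adjusted p 0.0732). It passed without guide 2 replicate 2 (-0.29, SE 0.0478, adjusted p 0.00139), as did guide 2 against the empty vector (-0.47, SE 0.0814, adjusted p 0.00245).

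BIRC2 and BIRC3 are neighbouring genes that encode the ubiquitin ligases cIAP1 and cIAP2, which help assemble the signalling complex at the TNF receptor and keep the slower branch off. BIRC3, the member of the pair that NF-kB induces, was lower in the edited genotypes as a group than in the controls, and BIRC2 was not. The genes lie on chromosome 11 on the same strand, BIRC3 (ENSG00000023445) at 102317450 to 102339403 and BIRC2 (ENSG00000110330) at 102347211 to 102378670, with 7807 bases between them. BIRC3 had 165, 83.7 and 104 CPM in parental cells, 111, 94.6 and 114 CPM with the empty vector, 64.8, 60.7 and 49.5 CPM with guide 1, 59.1, 113 and 69.4 CPM with guide 2, and 56.9, 62.7 and 45.4 CPM with both guides. Apart from guide 2 replicate 2, no edited library was above 69.4 CPM and no control library below 83.7 CPM. BIRC2 had 113, 97.8 and 100 CPM in parental cells, 89.8, 81.2 and 89.0 CPM with the empty vector, 88.1, 78.8 and 89.3 CPM with guide 1, 99.6, 118 and 99.0 CPM with guide 2, and 95.3, 102 and 86.1 CPM with both guides. Its parental and guide 2 libraries all lay above those of the empty vector. The guide 1 libraries lay below all parental ones for BIRC2 (log2 fold change -0.26, SE 0.0912, edgeR adjusted p 0.193, all libraries).

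BIRC3 fell in the edited genotypes as a group against the controls, to 0.569 of their level (log2 fold change -0.81, SE 0.163, edgeR adjusted p 0.0296). BIRC2 had a log2 fold change of -0.00 there (SE 0.0588, adjusted p 1). For single lines against the empty vector the BIRC3 differences of -0.88 (SE 0.258), -0.42 (SE 0.256) and -0.97 (SE 0.259) for guide 1, guide 2 and both guides did not pass (adjusted p 0.0648, 0.414 and 0.0959). All 3 passed without guide 2 replicate 2, at -0.89, -0.76 and -0.99 (adjusted p 0.00946, 0.0457 and 0.0149). BIRC2 passed in none of those 3, and its highest difference was 0.27 with guide 2 (SE 0.0912, adjusted p 0.127, all libraries).

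ICAM1 (ENSG00000090339, chromosome 19, 10270835 to 10286615), the adhesion molecule that leukocytes grip on epithelium and endothelium, had the clearest differences of the 10 genes, and they were not those of an edited against a control line. Its levels were 10.6, 9.31 and 6.78 CPM in parental cells, 27.1, 25.9 and 30.5 CPM with the empty vector, 13.7, 12.8 and 13.0 CPM with guide 1, 6.49, 4.20 and 7.08 CPM with guide 2, and 14.6, 13.5 and 14.6 CPM with both guides. By group, the empty vector stood highest at 27.8 ± 2.42 CPM (SD, n = 3), then both guides at 14.2 ± 0.599, guide 1 at 13.2 ± 0.483, parental cells at 8.89 ± 1.93 and guide 2 at 5.92 ± 1.52. The ranges of both guides and guide 1 overlapped, as did those of parental cells and guide 2, while the other neighbours in that order were separate. The parental cells thus lay between edited lines, and far below the other control.

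ICAM1 was lower than with the empty vector in all 4 other genotypes in edgeR. The log2 fold change was -2.24 with guide 2 (SE 0.195, adjusted p 0.000207), -1.68 in parental cells (SE 0.191, adjusted p 0.00131), -1.09 with guide 1 (SE 0.187, adjusted p 0.00754) and -0.99 with both guides (SE 0.187, adjusted p 0.029). The guide 2, parental and guide 1 calls held in each of 22 alternative fits, with adjusted p of at most 0.0441, 0.0121 and 0.0446. The double-guide call was lost without any 1 of the empty vector or double-guide libraries (adjusted p up to 0.146). Edited lines also differed from each other: ICAM1 was higher with both guides than with guide 2 (log2 fold change 1.25, SE 0.19, adjusted p 0.026), and the difference of 1.15 between guide 1 and guide 2 (SE 0.19) had an adjusted p of 0.0729. Without guide 2 replicate 2 these were 1.06 (adjusted p 0.00372) and 0.96 (adjusted p 0.0272). The call between both guides and guide 2 was lost without empty vector replicate 1 or 2, guide 2 replicate 1 or 3, or any double-guide library (adjusted p up to 0.132), with the replicate block (0.0611) and in the compared groups only (0.412). NF1 was at 29.4 ± 2.27 CPM with guide 2 and 28.1 ± 1.81 CPM with both guides (SD, n = 3), a log2 difference of -0.07 (SE 0.088, adjusted p 0.97).

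**Figure D3:**
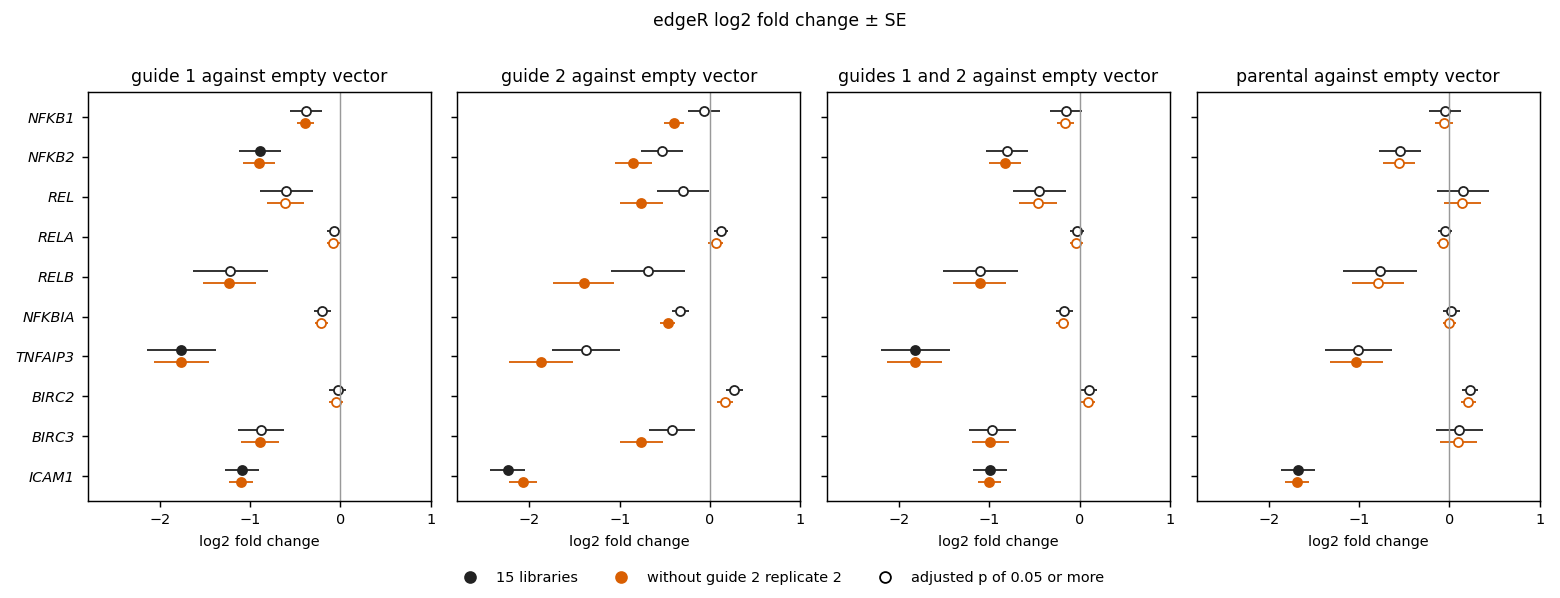
Log2 fold change with SE of each member against the empty vector for the 3 edited lines and the parental cells, with all 15 libraries (black) and without guide 2 replicate 2 (orange). Filled points have an adjusted p under 0.05 in edgeR. ICAM1 is filled in every panel, and 8 of the 10 genes are filled for guide 2 once that library is left out, against 1 with it.

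Counted over the set with all libraries, 3 of the 10 genes passed with guide 1 against the empty vector (NFKB2, TNFAIP3 and ICAM1), beside 5.88% of all tested genes. With guide 2, ICAM1 alone passed, beside 3.94%. With both guides 2 passed, TNFAIP3 and ICAM1, beside 0.962%. Parental cells differed in ICAM1 alone, beside 4.37%. All of these levels were lower than with the empty vector, whose libraries the 4 comparisons share. The median log2 fold change of the 10 genes was -0.74 with guide 1, -0.37 with guide 2, -0.63 with both guides and -0.05 in parental cells, where the median of all tested genes lay between -0.00 and 0.03. Complete separation below the empty vector was seen for 8 of 10 members with guide 1, beside 18.1% of tested genes, for 3 with guide 2, beside 10.9%, and for 8 with both guides, beside 17.2%. In parental cells it was seen for 2, beside 14.1%. RELA and BIRC2 separated downward in none of the 4, and BIRC2 lay above the empty vector without overlap with guide 2 and in parental cells.

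Without guide 2 replicate 2, 6 members passed with guide 1 (beside 18.1% of tested genes), 8 with guide 2 (beside 14.5%), 5 with both guides (beside 6.7%) and 2 in parental cells (beside 13.9%), all lower than with the empty vector. The parental calls were ICAM1 and TNFAIP3 (log2 fold change -1.03, adjusted p 0.036). The share of all tested genes that passed rose in the same fits. The smallest counts came from leaving out single libraries. With guide 1 the count was 1 without empty vector replicate 3 or any guide 1 library, and with both guides it was 0 without any empty vector or double-guide library.

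Set against the parental cells, no member passed in edgeR in any edited line. The count at an unadjusted p under 0.05 was 5 for guide 1, 3 for guide 2 and 2 for both guides. Of all 17457 tested genes, 3471, 1287 and 1742 lay under that unadjusted threshold. After adjustment, 0.149%, 0.0516% and 0.195% of all tested genes passed in edgeR. DESeq2 called 1, 0 and 2 members, beside 3.2%, 0.63% and 1.77% of all genes. Voom with quality weights called 7, 6 and 4, beside 52.9%, 32.5% and 21.3% of all genes. The median log2 fold change of the 10 genes was -0.34, -0.19 and -0.23. Without guide 2 replicate 2 the counts were 5, 3 and 2, beside 14.5%, 5.96% and 2.62% of tested genes. BIRC3 was among them each time, at -0.99 (adjusted p 0.0114) with guide 1, -0.86 (adjusted p 0.0487) with guide 2 and -1.09 (adjusted p 0.0159) with both guides. ICAM1 was then higher than in parental cells with guide 1 (log2 fold change 0.59, adjusted p 0.0155) and both guides (0.69, adjusted p 0.0171), the reverse of its direction against the empty vector. With guide 1, NFKB1 (-0.33, adjusted p 0.0378), REL (-0.75, adjusted p 0.0333) and BIRC2 (-0.26, adjusted p 0.0461) were lower too. In guide 2 cells NFKBIA (-0.47, adjusted p 0.00667) and REL (-0.90, adjusted p 0.0437) were lower than in parental cells. The 3 comparisons share the parental libraries.

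For the edited genotypes as a group against both controls, TNFAIP3 (log2 fold change -1.14, SE 0.236, adjusted p 0.0339), BIRC3 and ICAM1 (-0.60, SE 0.119, adjusted p 0.0285) were lower in edgeR, 3 of 10 members beside 1.51% of tested genes, with a median of -0.50 over the set and 0.01 over all genes. For ICAM1 this mean joins controls that differ from each other, and its edited and control libraries overlap. All 3 calls were lost without parental replicate 1, empty vector replicate 1 or 3, guide 1 replicate 1 or 2, or any double-guide library. TNFAIP3 and BIRC3 were also lost without parental replicate 3 or guide 2 replicate 1 or 3, TNFAIP3 without guide 1 replicate 3, and ICAM1 without parental replicate 2. The adjusted p reached 0.111 for TNFAIP3 and 0.0943 for BIRC3 and ICAM1. With guide 2 replicate 2 left out, 8 members passed, all but RELA and BIRC2, beside 18% of tested genes.

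Among all 5 genotypes, 2 members differed in the F test of edgeR, ICAM1 (adjusted p 0.000569) and TNFAIP3 (adjusted p 0.036), beside 4.3% of tested genes. Between edited lines, guide 1 against guide 2 gave no call in edgeR, beside 0.0401% of tested genes. At an unadjusted p under 0.05 it gave 3 members, beside 2648 of 17457 tested genes. DESeq2 called 1 there (beside 1.02%) and voom 3 (beside 20.2%). Both guides against guide 1 gave none either in edgeR, beside 0.275%. At an unadjusted p under 0.05 the count was 0, beside 2270 of 17457 tested genes. DESeq2 called 0 there (beside 1.97%) and voom 2 (beside 46.5%). Both guides against guide 2 gave ICAM1 alone, beside 0.149%. Without guide 2 replicate 2, ICAM1 alone passed between guide 1 and guide 2 (beside 0.162% of tested genes) and between both guides and guide 2 (beside 1.83%). Between both guides and guide 1 none passed in edgeR in that fit, beside 4.55%. There 1 member lay at an unadjusted p under 0.05, beside 4229 of 17849 tested genes. Among the genotypes 8 differed in the same fit, beside 23.7%.

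Within the guide 2 and parental groups, most members were high and low in the same replicates as the basal epithelial genes. In the guide 2 group, 9 of the 10 were highest in replicate 2, by 2.86 times the mean of the other 2 libraries for RELB, 2.22 times for TNFAIP3, 2.10 times for REL, 1.76 times for BIRC3, 1.72 times for NFKB1 and 1.71 times for NFKB2. NFKBIA, BIRC2 and RELA were 1.27, 1.18 and 1.09 times higher there. ICAM1 was the exception, at 0.62 times the mean of the others. In the parental group, the same 9 genes were highest in replicate 1 and lowest in replicate 2, from 2.80 times for RELB and 2.65 times for TNFAIP3 down to 1.13 times for RELA. The epithelial genes TP63, CDH1, KRT14 and KRT5 had that order in the parental group as well, and the mesenchymal gene VIM had the opposite one (1466, 2289 and 1998 CPM). The share of all tested genes with the guide 2 or the parental order is not given here. Guide 2 replicate 2 differed beyond sampling noise from replicates 1 and 3 at 76.8% and 76.6% of genes. Parental replicates 1 and 2 differed so at 65.8% of genes. The guide 1 group had no such common order, since replicate 3 was the highest for NFKB1 and REL and the lowest for RELB, TNFAIP3 and BIRC3. KRT14, a basal keratin, was at 1147 CPM in guide 2 replicate 2 beside 18.9 and 17.4 CPM. The part of this shift in the differences between genotypes was not tested. In the bulk RNA, a change in the share of cells of a kind and a change in RNA per cell cannot be told apart.

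**Figure D4:**
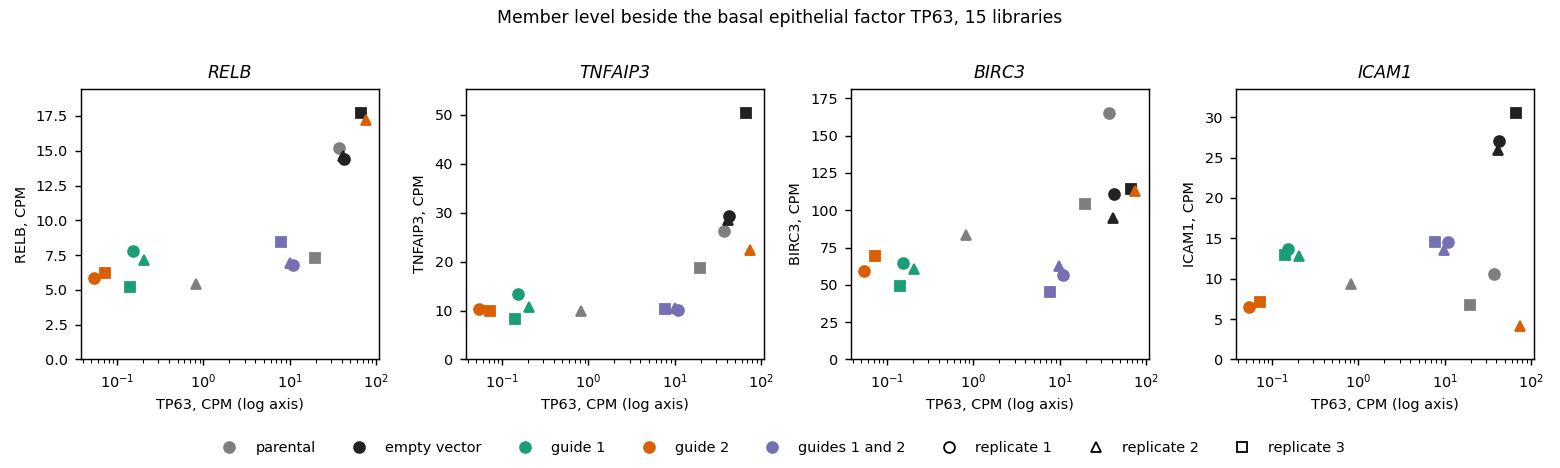
CPM of RELB, TNFAIP3, BIRC3 and ICAM1 (vertical axes) against CPM of the basal epithelial factor TP63 (log axis) in the 15 libraries, with colours for genotype and shapes for replicate. Guide 2 replicate 2, at 75.8 CPM of TP63, lies with the empty vector libraries for RELB and BIRC3 and at the bottom for ICAM1, while the double-guide libraries have low RELB, TNFAIP3 and BIRC3 at 7.83 to 11.0 CPM of TP63.

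The order of the 15 libraries was closest between RELB and TNFAIP3 (Spearman 0.91), NFKB2 and TNFAIP3 (0.88), NFKB2 and RELB (0.85) and NFKB1 and REL (0.85), as a description of log2 CPM over libraries that share genotypes. ICAM1 stood apart, at 0.26 with NFKB1 and 0.39 with RELB, which became 0.56 and 0.65 without guide 2 replicate 2, and at -0.64 with BIRC2. Ranked in the same way over 11632 expressed genes, the gene most like ICAM1 was DOK4 (0.929), before TGM2 (0.925) and BECN1 (0.914). For TNFAIP3 these were TNKS1BP1 (0.968), LIMA1 (0.939) and CA12 (0.932). RELB was followed by BLCAP (0.964), GSTP1 (0.950) and TRIB1 (0.950), and NFKB2 by PKP3 (0.936), TPD52L1 (0.932) and TFAP2A (0.929). BIRC3 lay closest to NAB1 (0.943), RNF144B (0.936) and AHR (0.929). For NFKB1 the nearest were NALF2 (0.971), CBLC (0.971) and ERVMER34-1 (0.964), and for REL they were MFSD4B (0.957), NUP153 (0.957) and TANC1 (0.954). RELA was nearest FBXL18 (0.943), DBNL (0.929) and ZDHHC5 (0.861), NFKBIA nearest CALD1 (0.904), ITM2B (0.900) and JARID2 (0.893), and BIRC2 nearest PCLAF (0.929), SLC25A40 (0.929) and KHDRBS1 (0.929). By Pearson correlation at most 1 of 3 names was shared for any member, so these names depend on the measure. Without guide 2 replicate 2, none of the 3 names was kept for ICAM1 and NFKBIA and 1 for TNFAIP3, against 2 or 3 for the other members.

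Around the 10 members, 74 other genes of the pathway were listed by role, and 66 could be tested. With guide 1 against the empty vector 15 of the 66 passed, beside 5.88% of all tested genes. With guide 2 it was 10 (beside 3.94%), with both guides 4 (beside 0.962%) and in parental cells 7 (beside 4.37%), and all were lower. The medians of the 66 were -0.24, -0.20, -0.16 and -0.21 on the log2 scale. Left out singly, guide 2 replicate 2 raised the counts to 29, 27, 18 and 18, of which 1 and 4 were increases with guide 1 and guide 2, while the share of all tested genes rose to 18.1%, 14.5%, 6.7% and 13.9%. The lowest counts over fits without 1 library were 6 (empty vector replicate 3 or guide 1 replicate 2), 3 (empty vector replicate 3), 0 (empty vector replicate 2 or 3 or any double-guide library) and 1 (parental replicate 2). In each of the 15 fits without 1 library, 5 of the 15 guide 1 calls held (TAB2, PLAU, IL1B, IER3 and TAP1), 3 of the 10 guide 2 calls (TAB2, PLAU and NFKBIZ), none of the 4 double-guide calls and 1 of the 7 parental calls (TAP1). Without empty vector replicate 3, 9, 7, 4 and 4 of the calls were lost.

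Of the receptors and ligands, 3 of 13 passed with guide 1, 2 with guide 2, 1 with both guides and 3 in parental cells. IL1B, which encodes the cytokine interleukin-1 beta that activates NF-kB, was at 47.9 ± 23.6 CPM (SD, n = 3) with the empty vector. It was at 1.78 ± 0.812 CPM with guide 1 (log2 fold change -4.77, SE 0.794, adjusted p 0.00668) and 4.43 ± 5.02 CPM with guide 2 (-3.47, adjusted p 0.0232). With both guides it was at 3.13 ± 0.0472 CPM (-3.96, adjusted p 0.0305) and in parental cells at 3.25 ± 1.85 CPM (-3.92, adjusted p 0.0153). The empty vector thus stood above the unmodified parental cells as well as the edited lines. In the guide 2 group replicate 2 was at 10.2 CPM beside 1.24 and 1.82 CPM, and without it the log2 fold change was -5.00 (adjusted p 0.000312). The guide 2 call was lost without empty vector replicate 3 or guide 2 replicate 1 or 3 (adjusted p up to 0.0965), the double-guide call without any empty vector or double-guide library (up to 0.154), and the parental call without parental replicate 2 or 3 or empty vector replicate 3 (up to 0.07). TLR2, a receptor for bacterial lipoproteins, fell from 2.89 ± 0.437 to 0.195 ± 0.123 CPM with guide 1 (-3.91, adjusted p 0.0234), a call lost without empty vector replicate 3 or any guide 1 library (up to 0.0994). TNFSF10, the death ligand TRAIL, was at 3.22 ± 0.92 CPM with the empty vector. It was lower with guide 1 (-2.21, adjusted p 0.0302), with guide 2 (-3.05, adjusted p 0.0122) and in parental cells (-2.14, adjusted p 0.0414). Its guide 1 call was lost with the replicate block (adjusted p 0.0737). Empty vector replicate 3 was among the libraries without which each of these 3 calls was lost, 5, 1 and 11 of the 15. TLR4, the receptor for endotoxin, was at 2.12 ± 0.493 CPM in parental cells. Its log2 fold change against them was 2.34 with guide 1 (adjusted p 0.0465), 2.61 with guide 2 (adjusted p 0.0436) and 2.68 with both guides (adjusted p 0.0151), and parental cells lay below the empty vector cells too (-2.27, adjusted p 0.0105). The guide 1 call was lost in 12 of the 15 fits without 1 library (adjusted p up to 0.233), all but those without guide 1 replicate 3 or guide 2 replicate 2 or 3. The guide 2 call was lost in 14 (up to 0.29), all but that without guide 2 replicate 2, which was at 4.13 CPM beside 16.0 and 18.1 CPM. The double-guide call was lost without parental replicate 2 or 3 or any double-guide library (up to 0.121), and the parental call without parental replicate 2 (0.0604).

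Among the inhibitors and atypical IkB genes 4 of 13 passed with guide 1, 4 with guide 2 and 2 with both guides. In parental cells none of 13 passed in edgeR (3 at an unadjusted p under 0.05, beside 3448 of 17457 tested genes). There DESeq2 called 2 (beside 8.11% of all genes) and voom 6 (beside 36.3%). NFKBIZ, an atypical nuclear IkB protein, and TNIP1, a partner of A20, were lower in all 3 edited lines. NFKBIZ had 12.3 ± 1.06 CPM with the empty vector (SD, n = 3), 7.34 ± 0.891 with guide 1 (log2 fold change -0.75, adjusted p 0.0231), 6.67 ± 0.379 with guide 2 (-0.89, adjusted p 0.0143) and 6.59 ± 0.488 with both guides (-0.92, adjusted p 0.0272). TNIP1 fell from 204 ± 12.4 CPM to 124 ± 12.4 (-0.72, adjusted p 0.0139), 130 ± 24.4 (-0.66, adjusted p 0.024) and 116 ± 1.94 CPM (-0.84, adjusted p 0.0191). TNIP3, of the same family, fell with guide 1 (-2.10, adjusted p 0.0149), and NFKBIE, the inhibitor IkB-epsilon, with guide 1 (-0.94, adjusted p 0.0173) and guide 2 (-0.80, adjusted p 0.0396). Without empty vector replicate 3, all 4 of these guide 1 calls, both double-guide calls and the guide 2 calls of TNIP1 and NFKBIE were lost. The fits without 1 library that lost a call numbered from 1 of 15 for TNIP1 with guide 1 to 11 for NFKBIE with guide 2, while the NFKBIZ call with guide 2 held in each.

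Of the adaptors and kinases, 2 of 21 passed with guide 1, TAB2 (log2 fold change -0.47, adjusted p 0.0022) and TRAF3 (-0.46, adjusted p 0.0216). The TRAF3 call was lost with the replicate block (0.0508) and without empty vector replicate 3 or guide 1 replicate 1 or 2 (up to 0.0991). TAB2, which links ubiquitin chains to the kinase TAK1, also passed with guide 2 (-0.42, adjusted p 0.00399) and in parental cells (-0.34, adjusted p 0.0111; 0.0604 without parental replicate 2). With both guides none of 21 passed in edgeR (6 at an unadjusted p under 0.05, beside 2444 of 17457 tested genes). DESeq2 called 2 there (beside 4.07% of all genes) and voom 9 (beside 26.7%). The list's medians lay between -0.09 and -0.05 on the log2 scale. The other target genes had the lowest medians, -0.74 with guide 1, -0.74 with guide 2, -0.63 with both guides and -0.60 in parental cells, and 6, 3, 1 and 3 of its 19 genes passed. MMP9, a matrix protease, had no count in any guide 1 library and 7.22 ± 9.76 CPM with the empty vector (SD, n = 3), at least 127-fold lower when each guide 1 library is set to 3 counts. Empty vector replicate 3 held 18.5 CPM of MMP9 beside 1.3 and 1.88 CPM, and without it the bound was 27.9-fold. The MMP9 call with guide 1 was lost without guide 1 replicate 2 (adjusted p 0.0562). With guide 2 MMP9 was at 0.0713 ± 0.111 CPM (log2 fold change -6.72, adjusted p 0.0253), which became -4.51 (adjusted p 0.077) without empty vector replicate 3 and -9.51 (adjusted p 0.0088) without guide 2 replicate 2, and the call was also lost without guide 2 replicate 1 or 3. PLAU, which encodes urokinase, fell from 160 ± 83.0 CPM to 35.3 ± 0.978 with guide 1 (-2.20, adjusted p 0.00312) and 42.1 ± 5.65 with guide 2 (-1.95, adjusted p 0.00525). The chemokine CXCL3 fell with guide 1 (-1.48, adjusted p 0.0383), a call lost without any empty vector, guide 1 or double-guide library (up to 0.15). TAP1, a peptide transporter of antigen presentation, was lower than with the empty vector in all 4 genotypes, by 0.74 with guide 1 (log2 fold change -0.74, adjusted p 0.00584), -0.61 with guide 2 (adjusted p 0.0167), -0.68 with both guides (adjusted p 0.0222) and -0.72 in parental cells (adjusted p 0.00866). Its guide 2 call was lost without empty vector replicate 3 or guide 2 replicate 1 or 3 (up to 0.0758), and its double-guide call without empty vector replicate 2 or 3 or any double-guide library (up to 0.122). LIF (-1.57, adjusted p 0.0248) and IER3 (-0.91, adjusted p 0.03) were lower in parental cells than with the empty vector. These calls were lost without parental replicate 2 or 3 or any empty vector library (up to 0.104 and 0.117).

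**Figure D5:**
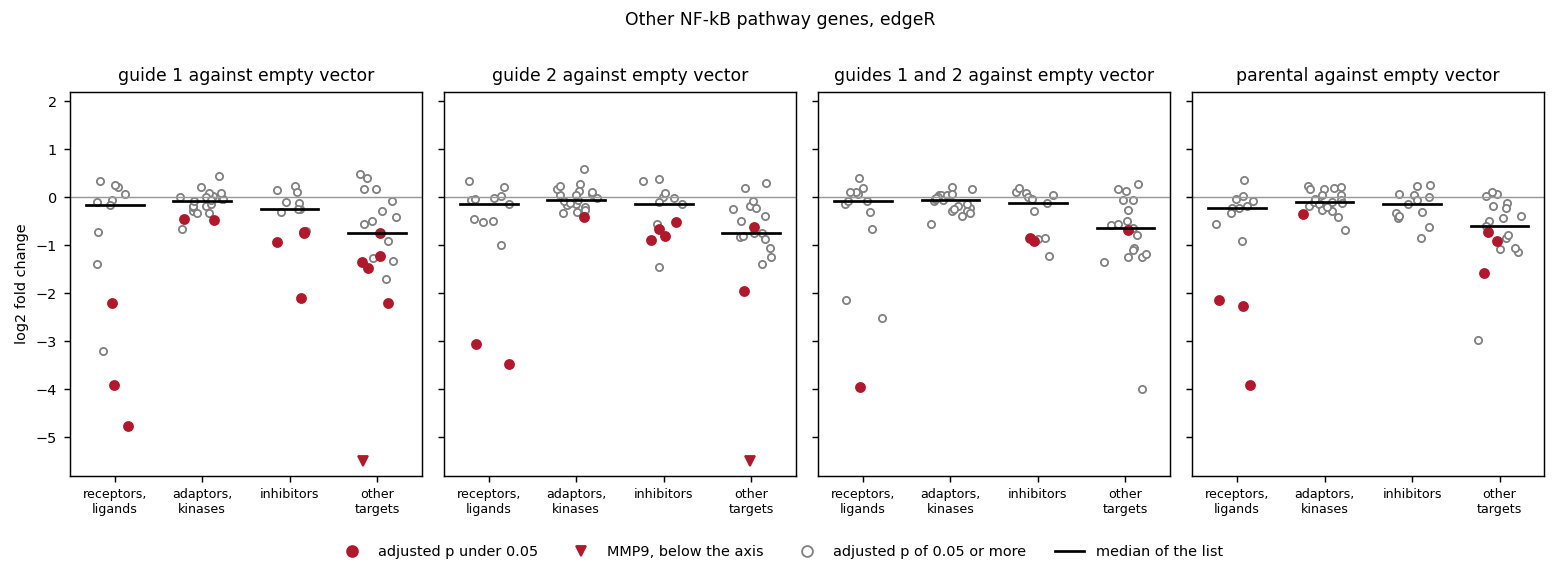
Log2 fold change against the empty vector of the 66 tested pathway genes (points) by role, for the 3 edited lines and the parental cells. Red points have an adjusted p under 0.05 in edgeR and lines are the medians of the lists; the medians of the other target genes lie lowest, at -0.74, -0.74, -0.63 and -0.60, and no red point lies above 0.

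Some counts carry a limit of position. REL overlaps 2 annotated genes on its own strand, and RELA, TNFAIP3 and ICAM1 overlap 1, 1 and 2 genes on the opposite strand. The use of strand in counting is not given in the sources used here, so reads from these partners cannot be told apart from those of the member.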

How the data were processed

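The authors deposited whole-number read counts per Ensembl gene for 15 libraries. Reads were trimmed with Trim Galore 0.6.0 and aligned with STAR 2.7.8a to GRCh38, per the submitters' processing notes; the counting program, annotation and use of strand are not given in the sources used here. The deposited CPM equal each count scaled to its library total, to within 4.91e-11. Groups came from the labels. Symbols were matched for 60357 of 60721 identifiers, and positions and exon lengths come from GENCODE release 29 on GRCh38.

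Counts were tested with the quasi-likelihood test of edgeR 4.0.16 (R 4.3.3) in a single group-means model over all 15 libraries, after filterByExpr and TMM scaling, which kept 17457 genes. Tests were two-sided. Adjusted p-values follow Benjamini and Hochberg across the 17457 genes, with 0.05 as the threshold. On simulated counts for guide 1 against the empty vector (17167 genes tested), 66% of 200 genes changed 2-fold were recovered. Low-count genes were not among those changed. Genes were drawn independently, with no library shifted over many genes as guide 2 replicate 2 was. The share recovered therefore need not hold for the real libraries. Alternatives were DESeq2 1.42.0, voom with quality weights (limma 3.58.1), other scaling, no filter, a replicate block, the compared groups only and each library left out; leaving out guide 2 replicate 2 and parental replicate 1 together was chosen after seeing the data. Shares of all genes for DESeq2 are of those it gave an adjusted p. The labels do not say whether libraries with the same replicate number belong together. Deviations of same-numbered guide 1 and empty vector libraries correlated at 0.136 to 0.28. Over all genotypes the mean was -0.0497, and between guide 2 and parental cells it was -0.485. The block fitted the replicate number across all 15 libraries, so it did not model a pairing of guide 1 with the empty vector alone. Replicates differed beyond sampling noise at 24.6% of genes or more, so none was a copy of another's counts. The check was against counting noise alone, so it cannot tell separate cultures from repeated libraries of the same RNA.

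The 10 members, the 4 pathway lists and the markers were chosen with earlier results of these data known. All members were named; from each list at most the 3 passing genes with the largest change in each direction and comparison, with their values elsewhere; and for each member the 3 genes with the highest Spearman correlation of log2 CPM (prior count 2). Of 74 pathway genes, 73 were matched by symbol. The libraries carry no stated molecular identifiers and PCR copies are not separate molecules, so count floors cover counting error only.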

Additional observations from a re-analysis of the deposited data

Results flagged for a closer look

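ICAM1 differed between edited lines in a direct test. It was higher with both guides than with guide 2 (log2 difference 1.25 with an SE of 0.19, edgeR adjusted p 0.026), with 13.5 to 14.6 CPM in the 3 double-guide libraries and 4.20 to 7.08 CPM in the 3 guide 2 libraries. Guide 2 replicate 2, which stands apart in its epithelial genes, was the lowest of the 6 at 4.20 CPM, and without it the difference was 1.06 (adjusted p 0.00372). The call was lost in 9 of 22 alternative fits, with an adjusted p of 0.412 in a fit to the compared groups only.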

How the results depend on the processing

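The number of members that passed depended on the fit, and so did the share of all genes that passed. With both guides against the empty vector that share was 0.962% in edgeR with all libraries, 4.07% with DESeq2 and 26.7% with voom. In parental cells against the empty vector it was 4.37%, 8.11% and 36.3%. Shares for these tools against parental cells are given above. Counts below without such a share cannot be set against all genes. Where 3 passed with guide 1 against the empty vector, DESeq2 gave 5, voom with quality weights 8, a fit to the compared groups only 6, and leaving out guide 2 replicate 2 together with parental replicate 1 gave 8. For guide 2 against the empty vector (1 passed) these were 3 with DESeq2, 9 with voom, 2 without the filter on low counts and 8 without both libraries. For both guides (2 passed) they were 4 with DESeq2, 6 with voom, 7 in the compared groups only and 6 without both libraries. For parental cells (1 passed) voom gave 5 and leaving out both libraries 5. Against the parental cells (0 passed in each line), DESeq2 gave 1, 0 and 2 for guide 1, guide 2 and both guides, voom 7, 6 and 4, the fit without both libraries 2, 1 and 2, and the fit without a filter 1 for both guides. Between guide 1 and guide 2 (0 passed) DESeq2 gave 1, voom 3, no filter 1 and the fit without both libraries 1. For both guides against guide 1 (0 passed) voom gave 2 and the fit without both libraries 1, and against guide 2 (1 passed) they gave 3 and 2, with 0 in the compared groups only. For edited against control genotypes (3 passed) voom gave 8 and the fit without both libraries 8. Among the 5 genotypes (2 passed) DESeq2 gave 5, voom 9 and the fit without both libraries 8.

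With the replicate block the count was 2 for guide 1 against the empty vector, with NFKB2, TRAF3 and TNFSF10 the named calls lost there. The block also ended the calls for both guides against the empty vector (0), for both guides against guide 2 (0) and for edited against control genotypes (0). It left 1 among the 5 genotypes. Whether libraries that share a replicate number belong together is not given by the labels. With 1 library left out, the counts ran from 1 to 6, 1 to 8 and 0 to 5 for the 3 edited lines against the empty vector, 0 to 5, 0 to 3 and 0 to 2 against parental cells, and 1 to 2 for parental cells against the empty vector. They ran from 0 to 1, 0 to 0 and 0 to 1 between the edited lines, 0 to 8 for edited against control and 1 to 8 among genotypes, and each highest value except in 0 to 0 was reached without guide 2 replicate 2.

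Over 103 log2 differences, 1767 of 2244 refitted values kept their direction and side of the threshold, 352 lost the call, 100 gained it and 25 changed sign. None that changed sign had passed the test. They were NFKB1 with guide 2 (-0.40 to 0.07 over fits without 1 library) and in parental cells (-0.19 to 0.03; -0.22 without both libraries), RELA with both guides (-0.06 to 0.00) and BIRC2 with guide 1 (-0.10 to 0.02), each against the empty vector. In parental cells REL (-0.06 to 0.39; -0.09 without both libraries), NFKBIA (-0.07 to 0.07; -0.05 with voom, -0.09 without both libraries) and BIRC3 (-0.21 to 0.30; -0.01 with voom, -0.23 without both libraries) did so, as did BIRC2 for edited against control genotypes (-0.04 to 0.04; 0.00 with the replicate block, 0.02 with voom, 0.01 without both libraries). The cause of these changes was not tested.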
